A study of Mus musculus with 2 samples.

Results

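The genes described here encode the coats, GTPases and cargo receptors that carry proteins between the endoplasmic reticulum (ER) and the Golgi apparatus. All 44 were chosen by gene symbol from the 55466 genes listed in each library, and each symbol matched exactly 1 row. The choice used no rule on their values, but earlier results of these data were known. The genes comprise 14 of the COPII coat, 9 of the COPI coat, 8 of the Arf GTPases and their regulators, 7 of the p24 family and 6 other cargo receptors. The cells were MIN6, an established insulin-secreting mouse insulinoma line, a tumour-derived stand-in for beta cells. They were equilibrated for 0.5 h at 2.8 mM glucose and then held for 1 h in KRBH, a bicarbonate-buffered salt solution, at 2.8 mM (low) or 25 mM (high) glucose, and total RNA extracted with Trizol gave 1 sequencing library per concentration. The sources used here do not say whether a library pools several cultures. Ins2 and Ins1, the insulin genes, stood at 60328 and 4194 FPKM at 2.8 mM and at 50846 and 4344 FPKM at 25 mM, and the beta-cell factor genes Pdx1 and Mafa were present in both libraries (92.7 and 77.1 FPKM at 2.8 mM, 88.0 and 87.0 FPKM at 25 mM).

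New secretory proteins leave the ER in vesicles coated by COPII. The GTPase Sar1 starts the coat, Sec23 and Sec24 form its inner layer and select cargo, and Sec13 and Sec31 form its outer cage. COPI, a coat recruited by Arf GTPases, carries escaped ER residents and recycled receptors back from the Golgi. Beta cells send very large amounts of proinsulin along this route. In mice, loss of Sec23b makes the secretory pancreas degenerate, and in a rat beta-cell line the cargo receptor Surf4 is known to carry proinsulin out of the ER.

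Values are FPKM, which divide fragment counts by gene length and library size, so levels of different genes are compared per length. With 1 library per concentration there is no replicate error, no difference was tested, and every difference is one between 2 libraries. Changes are log2((FPKM at 25 mM + 1)/(FPKM at 2.8 mM + 1)), and 12694 genes counted as expressed because the mean of their 2 FPKM values was 1 or more. In such bulk samples, fewer cells making a transcript and less of it per cell cannot be told apart. The steps between low FPKM values corresponded to 19660000 fragments at 2.8 mM and 16780000 at 25 mM. Counting intervals below are exact Clopper-Pearson 95% intervals of the log2 ratio, without a pseudocount, and cover counting error only. Except for Kdelr2 and Kdelr3, which have a single transcript, they rest on the fragments that the shortest coding transcript would hold. That choice gives few fragments and a wide interval.

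A short element recognised by factors of the unfolded protein response stood in 9 of the 45 promoters found for these genes. Of the 44 genes, 39 had at least 1 promoter of 300 bases in RefSeq (GRCm38.p6; 250 bases before to 50 after a transcription start), 45 promoters in all; Tmed2, Tmed7, Arcn1, Kdelr2 and Lman1 had no entry. The letters TGACGTGG, on either strand, are the element bound by XBP1 and ATF6, transcription factors that raise ER capacity under ER stress. The 9 promoters, 20% of those of the members, belong to 8 genes. The element occurred in 0.859% of 11639 promoters of expressed genes and 0.676% of all 32851 promoters. Among promoters of expressed genes with a GC content between the quartiles of the members' promoters (56.3% to 68.3%), the share was 0.841%. Among 72 promoters of other genes of the early secretory pathway it was 1.39%. The sites of the 8 genes are given because this element had the greatest ratio of member share to expressed-gene share among the motifs looked for. Each is read 5′ to 3′ on the gene's strand, with the match in capitals, written as CCACGTCA where it lies on the opposite strand. Windows are 30 bases where they reach transcribed sequence and 80 bases for Kdelr3, all from RefSeq.
Arf1 (chr11:59228228-59228257, minus strand): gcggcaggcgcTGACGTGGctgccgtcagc
Copb1 (chr7:114254690-114254719, minus strand): cccgcccccttCCACGTCAgccaaggactt
Copb2 (chr9:98563713-98563742, plus strand): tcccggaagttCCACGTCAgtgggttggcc
Gbf1 (chr19:46152535-46152564, plus strand): gaggctagttaCCACGTCAgtgagctgaca
Kdelr3 (chr15:79516328-79516407, plus strand): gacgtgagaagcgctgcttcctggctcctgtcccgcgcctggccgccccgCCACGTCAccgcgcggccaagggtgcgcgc
Sec16b (chr1:157506741-157506770, plus strand): ttctgtgtggcTGACGTGGcacggcagttt
Sec23a (chr12:59011993-59012022, minus strand): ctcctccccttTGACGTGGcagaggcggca
Sec24d (chr3:123267459-123267488, plus strand): gcccgggcgccTGACGTGGcactagcaacc

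Each gene had 1 such site. For Copb1, Copb2, Gbf1, Kdelr3, Sec16b and Sec24d the first base of the match lay 7 to 44 bases before the RefSeq start. For Sec23a it was base 7 after that start. The Arf1 site fell in both of that gene's promoter windows, 84 bases before one RefSeq start and at base 22 after the other. By the gene bounds of GENCODE, a second annotation, only the Kdelr3 match lies before its gene. The other matches lie inside the annotated gene, so their place relative to the start depends on the annotation. The genes span the coats: Copb1 and Copb2 encode COPI subunits, Gbf1 the exchange factor that activates Arf1, and Sec23a, Sec24d and Sec16b parts of COPII.

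Most other motifs were near or below their share in expressed genes. In all, 14 motifs were looked for on both strands, and the element above was singled out after its count was seen. The ER stress response element (CCAAT and CCACG with 9 bases between) and its second form (ATTGG and CCACG with 1 base between) had no match in the members' promoters, against 0.129% and 0.0773% of the promoters of expressed genes. The cyclic AMP response element TGACGTCA occurred in 1 promoter (2.22% against 3.33%), that of Cope, the COPI epsilon subunit gene.
Cope (chr8:70302546-70302575, plus strand): gcggaggaatgTGACGTCAcggagagaccc
The Cope window is shown with that element in capitals because this gene had the highest change of the 41 expressed members. The GC box GGGCGG was found in 62.2% of member promoters and 63.8% of promoters of expressed genes, the NF-Y box CCAAT in 35.6% and 38.6%, the E-box CACGTG in 8.89% and 10.4%, the ETS motif CCGGAAGT in 11.1% and 8.58%, and the TBP box TATAAA in 2.22% and 6.62%. The shares were 2.22% and 1.65% for the YY1 motif and 2.22% and 2.14% for the NRF1 motif. Shorter stretches that every match to the first element also holds were more frequent in the members too: GACGTG was in 40.0% of member promoters against 9.41%, CCACG in 77.8% against 48.1%, and TGACG in 51.1% against 32.4%. In the 36 member promoters without the full element, GACGTG was in 25% against 8.62% of such promoters of expressed genes, CCACG in 72.2% against 47.6%, and TGACG in 38.9% against 31.8%. A match is a description of letters and not a binding site, and no match says only that the letters are not in these windows.

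**Figure D1:**
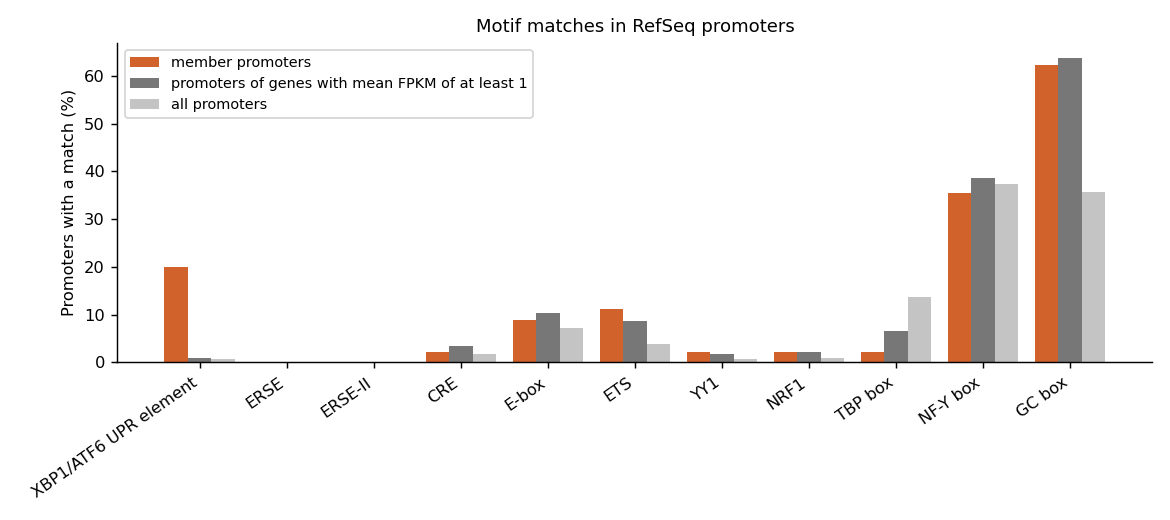
Percentage of 300-base RefSeq promoters with a match to each motif on either strand, for the 45 promoters of the members, the 11639 of expressed genes and all 32851. The XBP1/ATF6 element is at 20% in the members and below 1% in the other sets, while the GC, NF-Y and E-box shares are close to those of expressed genes.

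The members were abundant transcripts. Of the 44 genes, 41 were expressed and 30 ranked in the top 25% of expressed genes by mean FPKM. Together the members held 0.507% of the summed FPKM at 2.8 mM and 0.537% at 25 mM. Their median mean level was 74.6 FPKM, compared with 14.4 FPKM for all expressed genes. The 3 that did not reach a mean of 1 FPKM were Sec31b, Kdelr3 and Arf4. Arf4 was listed at exactly 0 in both libraries, which can be a failed estimate.

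**Figure D2:**
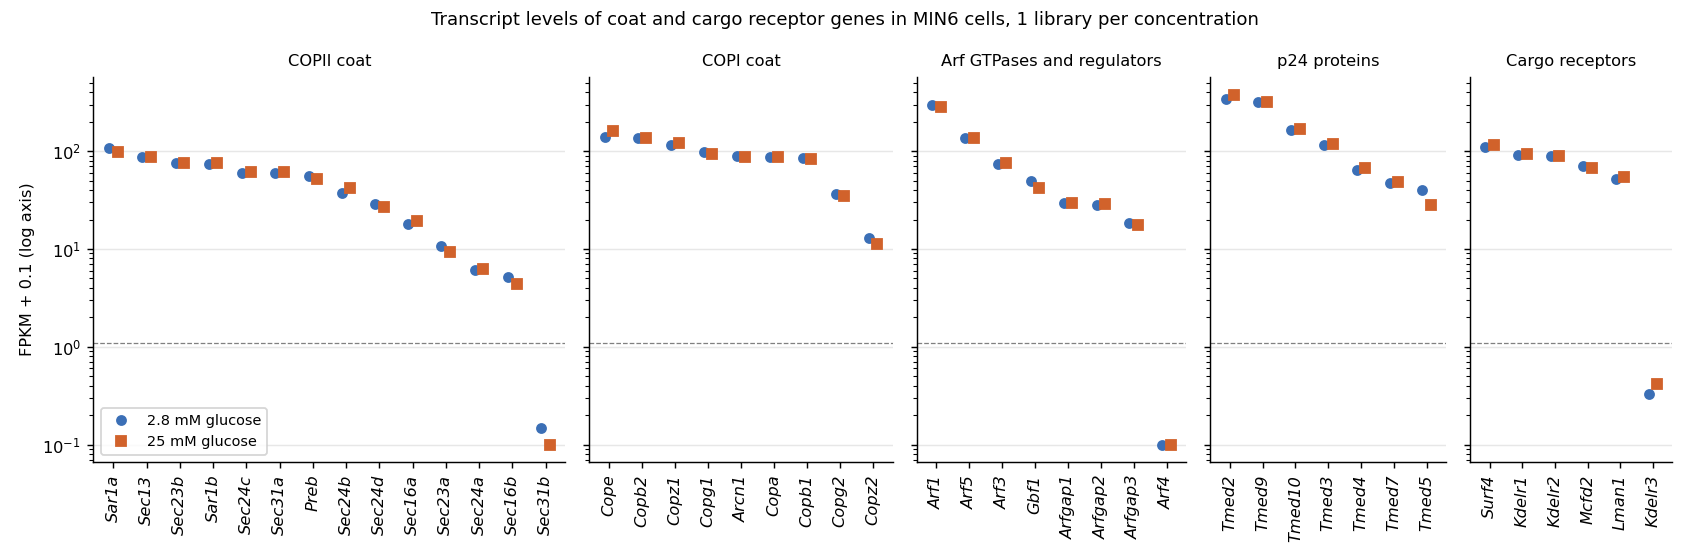
FPKM of every member (log axis, with 0.1 added so that values of 0 can be drawn) in the 2.8 mM library (circles) and the 25 mM library (squares), grouped by role and ordered by mean level; the dashed line marks 1 FPKM. The 2 symbols lie close together for nearly every gene, Tmed5 being the most separated of the expressed members, and Sec31b, Arf4 and Kdelr3 lie below the line.

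Within COPII, the small GTPase and cargo-selecting Sec24 positions held the most transcript. Sar1a was at 108 FPKM in low and 97.4 FPKM in high glucose, and its paralogue Sar1b, which in humans is needed for the export of chylomicrons, at 74.4 and 76.4 FPKM. Sar1a thus held 59.3% and 56.1% of the summed Sar1 level. Preb, the ER membrane protein also called Sec12 that loads Sar1 with GTP, was at 55.4 and 52.2 FPKM. Of its 31-mers, 23.1% also occur in transcripts of other genes, chiefly the overlapping Abhd1, so its level is uncertain.

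The Sec23 level came mostly from a single paralogue. Sec23b (chromosome 2, 144556229 to 144590749, GRCm38) was at 75.0 FPKM in low and 76.1 FPKM in high glucose, whereas Sec23a (chromosome 12, 58958383 to 59012017) was at 10.5 and 9.26 FPKM. Sec23b therefore held 87.7% and 89.1% of the Sec23 level, 7.12 and 8.22 times that of Sec23a. Sec23 is the subunit that stimulates GTP hydrolysis by Sar1, and its 2 forms are close relatives.

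The cargo-binding Sec24 level was spread over its 4 paralogues. Sec24c was at 60.2 and 60.5 FPKM, Sec24b at 36.9 and 42.1 FPKM, Sec24d at 28.7 and 27.03 FPKM and Sec24a at 6.00 and 6.18 FPKM. The order c, b, d, a was the same in both libraries. As shares of the family at 2.8 mM these were 45.7%, 28.0%, 21.8% and 4.55%, and at 25 mM 44.5%, 31.02%, 19.9% and 4.55%. Sec24a and Sec24b form one subfamily and Sec24c and Sec24d the other, so each subfamily had 1 paralogue well above its partner in these cells.

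The Sec31 level came almost wholly from a single gene. Sec31a was at 59.8 and 60.6 FPKM, while Sec31b was listed at 0.0468 FPKM at 2.8 mM and at 0 at 25 mM. Sec13, which pairs with Sec31 and is also a nuclear pore protein, was at 87.4 and 88.1 FPKM. The exit site scaffold Sec16 was the lowest COPII position, with Sec16a at 18.0 and 19.2 FPKM and the shorter Sec16b at 5.02 and 4.25 FPKM. Summed over paralogues, COPII positions ran from Sec16 (23.0 and 23.4 FPKM) to Sar1 (183 and 174 FPKM), a range of 7.94-fold at 2.8 mM and 7.42-fold at 25 mM. Between these lay Sec24 at 132 and 136 FPKM and Sec23 at 85.6 and 85.3 FPKM.

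COPI positions were more alike, but the positions counted for each coat are unlike. The COPII range takes in the GTPase Sar1, its exchange factor Preb and the scaffold Sec16, while COPI leaves out Arf1 and Gbf1. The COPII layers alone (Sec23, Sec24, Sec13 and Sec31) ran from Sec31 (59.8 and 60.6 FPKM) to Sec24 (132 and 136 FPKM). The COPI coat is assembled from 7 subunits, 1 copy of each, and their summed levels ranged 1.63-fold at 2.8 mM and 1.96-fold at 25 mM. At 2.8 mM glucose 3 positions lay between 84.9 and 90.1 FPKM, namely beta (Copb1, 84.9 FPKM), alpha (Copa, 87.6 FPKM) and delta (Arcn1, 90.1 FPKM). The other 4 lay higher: zeta (Copz1 and Copz2, 129 FPKM), gamma (Copg1 and Copg2, 136 FPKM), beta' (Copb2, 137 FPKM) and epsilon (Cope, 139 FPKM). At 25 mM the same 3 stood at 82.9, 86.8 and 86.3 FPKM and the other 4 at 132, 129, 135 and 162 FPKM. The 2 sets did not overlap in either library, a grouping made after the values were seen.

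**Figure D3:**
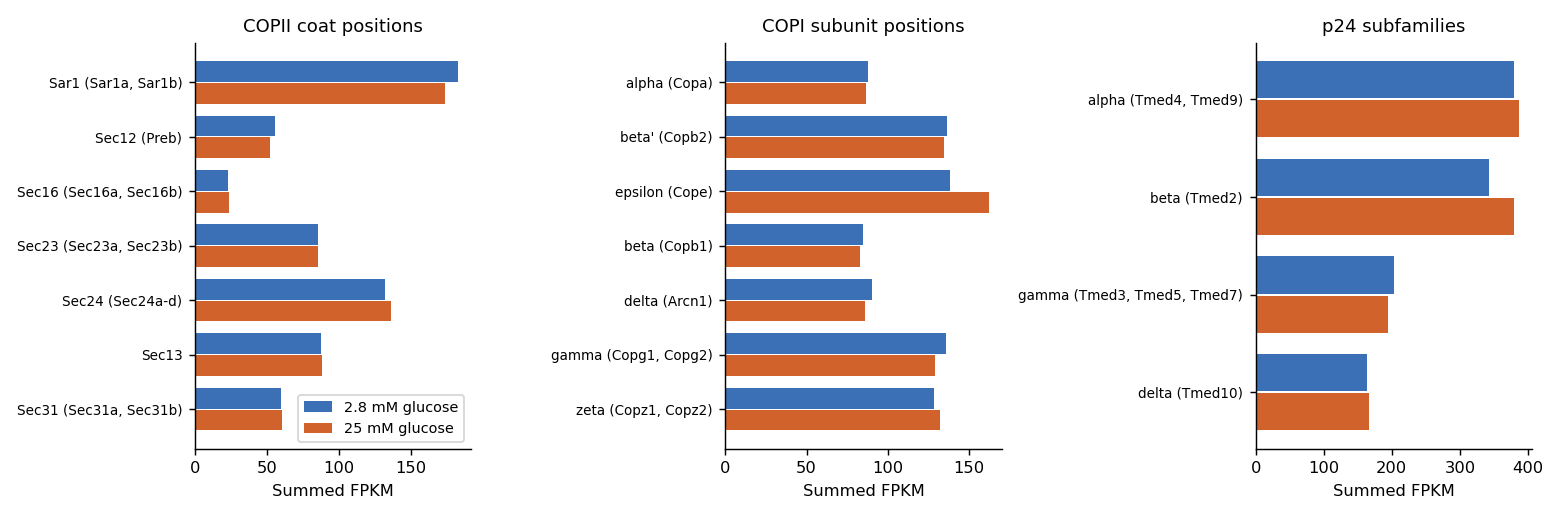
Summed FPKM of the members in each position of the COPII coat, the COPI coat and the p24 family (horizontal bars from 0; upper bar 2.8 mM, lower bar 25 mM). COPI positions span 1.63-fold at 2.8 mM and COPII positions, which include Sar1, Preb and Sec16, span 7.94-fold. The 25 mM bar is longer than the 2.8 mM bar most clearly for COPI epsilon (139 and 162 FPKM) and p24 beta (343 and 379 FPKM).

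Both COPI positions with paralogues were dominated by the first. Copg1 was at 99.0 and 94.3 FPKM and Copg2 at 36.8 and 34.7 FPKM, so Copg1 held 72.9% and 73.1% of gamma. Copz1 was at 116 and 121 FPKM and Copz2 at 12.8 and 11.1 FPKM, so Copz1 held 90.1% and 91.6% of zeta. The 2 paralogues of each position form distinct COPI complexes in mammalian cells. Exons of Copg2 overlap those of the imprinted gene Mest on the opposite strand over 912 bases, while Mest was at 0.0504 and 0.172 FPKM in these libraries.

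Among the GTPases that recruit COPI, Arf1 was the most abundant with 293 FPKM in low and 286 FPKM in high glucose. Arf5 followed at 136 and 137 FPKM and Arf3 at 73.9 and 75.4 FPKM. Arf4, a further Golgi Arf, was listed at 0 in both libraries. Pde12, a protein-coding gene on the opposite strand whose exons overlap those of Arf4 over 527 bases, was also listed at 0 in both, and so was Ndufs3, a core subunit gene of respiratory complex I that cells with respiring mitochondria use. These 2 genes were named after their values were seen. Of 21932 protein-coding genes, 7029 were listed at 0 in both libraries, so such a value is common. An exact 0 here can be a failed estimate or an absent transcript, and which of these holds for Arf4 was not tested. Shares within the Arf family (58.3% and 57.3% for Arf1) therefore cover only Arf1, Arf3 and Arf5.

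The regulators of Arf were less abundant than Arf1 itself. Gbf1, the exchange factor that activates Arf at the early Golgi, was at 49.0 and 42.2 FPKM. The GTPase activators that let Arf release the coat were at 29.5 and 29.6 FPKM (Arfgap1), 27.9 and 28.9 FPKM (Arfgap2) and 18.4 and 17.6 FPKM (Arfgap3). For Arfgap2, 68.8% of the 31-mers also occur in transcripts of other genes, chiefly 1110051M20Rik on the opposite strand, so its level is uncertain.

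The p24 proteins, small membrane proteins that cycle between ER and Golgi and link cargo to both coats, were the most abundant group. The 7 genes summed to 1090 FPKM at 2.8 mM and 1127 FPKM at 25 mM. Tmed2, the only beta-subfamily member, was at 343 and 379 FPKM. Tmed9 of the alpha subfamily was at 315 and 320 FPKM, and Tmed10, the delta member, at 164 and 167 FPKM. These lay above the gamma members Tmed3 (116 and 117 FPKM), Tmed7 (46.8 and 48.5 FPKM) and Tmed5 (39.7 and 28.3 FPKM) and above the second alpha member, Tmed4 (64.8 and 66.5 FPKM). Of the 31-mers of Tmed2, 30.7% also occur in another gene, so its level is uncertain.

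Over the members of each subfamily, alpha summed to 380 and 386 FPKM, beta to 343 and 379 FPKM, gamma to 203 and 194 FPKM and delta to 164 and 167 FPKM. Further Tmed genes, counted below with the other pathway genes, are not in these sums. The most abundant of those was Tmed1, at 20.8 and 19.4 FPKM. Alpha, beta, gamma and delta members are known to assemble with one another, so the transcripts of the partners differed by up to 2.32-fold at 2.8 mM and 2.31-fold at 25 mM.

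The KDEL receptors, which return escaped ER chaperones to the ER in COPI vesicles, came from 2 genes at near equal levels. Kdelr1 was at 91.9 and 92.7 FPKM and Kdelr2 at 88.7 and 89.6 FPKM, ratios of 1.04 and 1.03. Kdelr3 was at 0.227 and 0.313 FPKM, from 5 recovered fragments at 2.8 mM and 6 at 25 mM, 0.125% and 0.171% of the family. A difference between those 2 counts was not detectable at this depth (interval of the log2 ratio -1.51 to 2.52).

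Export receptors were expressed throughout. Surf4 was at 109 and 115 FPKM. Lman1, a lectin that with its partner Mcfd2 exports glycoproteins such as clotting factors in humans and mice, was at 51.9 and 54.8 FPKM, and Mcfd2 at 71.3 and 67.8 FPKM. Lman1 was thus 0.728 times the level of Mcfd2 at 2.8 mM and 0.809 times at 25 mM.

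**Figure D4:**
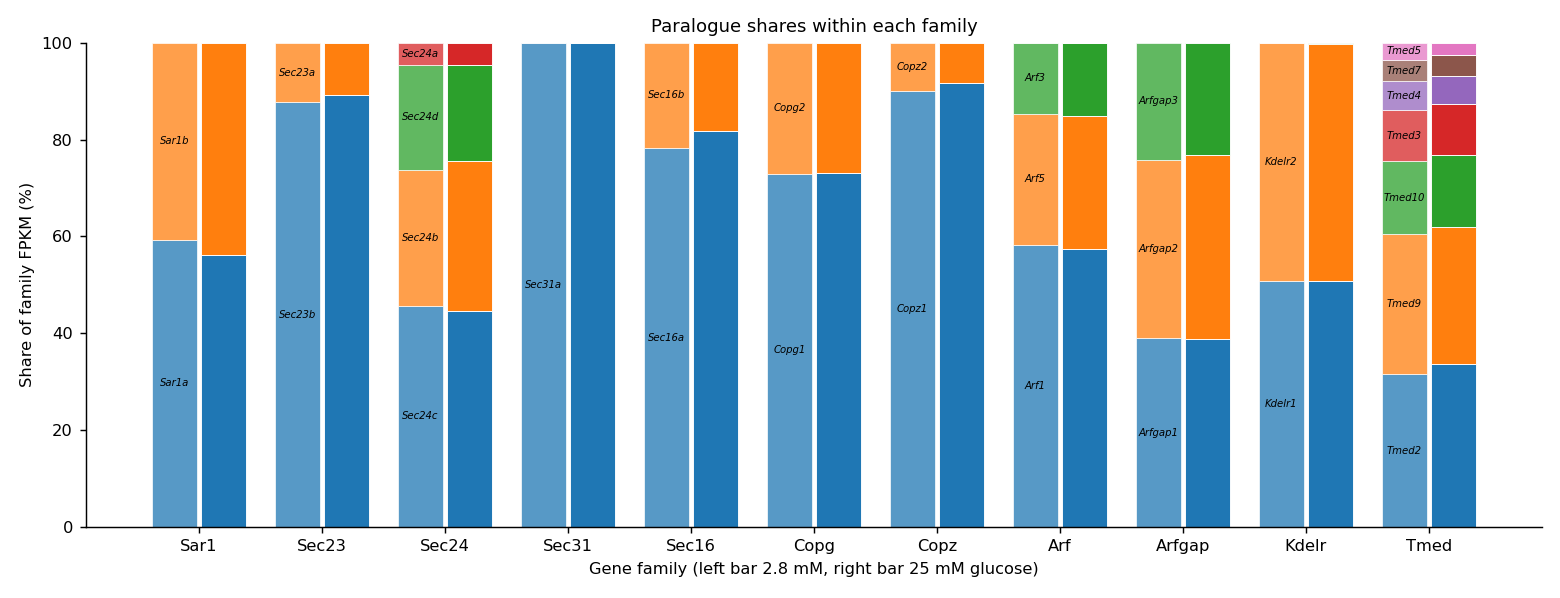
Share of each paralogue in the summed FPKM of the members of its family, from 0 to 100%, with the left bar of each pair for 2.8 mM and the right for 25 mM glucose. Sec23b, Copz1 and Sec31a fill most of their bars, Kdelr1 and Kdelr2 divide theirs nearly equally, Arf4 is listed at 0, and Sec31b and Kdelr3 are too small to see.

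Between the libraries the members differed little. None of the 41 expressed members was at least 1.5-fold higher or lower at 25 mM, against 1.95% higher and 2.51% lower of all 12694 expressed genes. With a smaller threshold, 1 member was at least 20% lower and 0 were at least 25% higher, against 7.63% and 5.43% of expressed genes. The members are abundant, and abundant genes differed less. At a mean of 5 FPKM or more, 0.805% of 9438 genes were 1.5-fold higher and 1.37% lower, and 4.88% and 3.06% passed the smaller lower and higher thresholds. At 20 FPKM or more the shares of 5174 genes were 0.367% and 0.889%, and 2.8% and 1.89%, so the 1 member that passed, out of 35 at that level, is a share near that background. Within 1.1-fold were 78.0% of the expressed members and 59.2% of all expressed genes. For the 35 members at 20 FPKM or more the share was 82.9%, against 73.2% of genes at that level.

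The median log2 change of the 41 expressed members was 0.01, with 24 above 0 and 17 below, compared with -0.02 for all expressed genes, of which 45.6% were above 0 and 54.4% below. By role the medians were 0.01 for 13 COPII genes, 0.00 for 7 Arf GTPases and regulators, 0.03 for 7 p24 genes and 0.01 for 5 cargo receptors. For the 9 COPI genes it was -0.03, and 0.03 and 0.01 when the libraries were rescaled to the same summed FPKM with and without mitochondrial and the 10 most abundant genes.

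**Figure D5:**
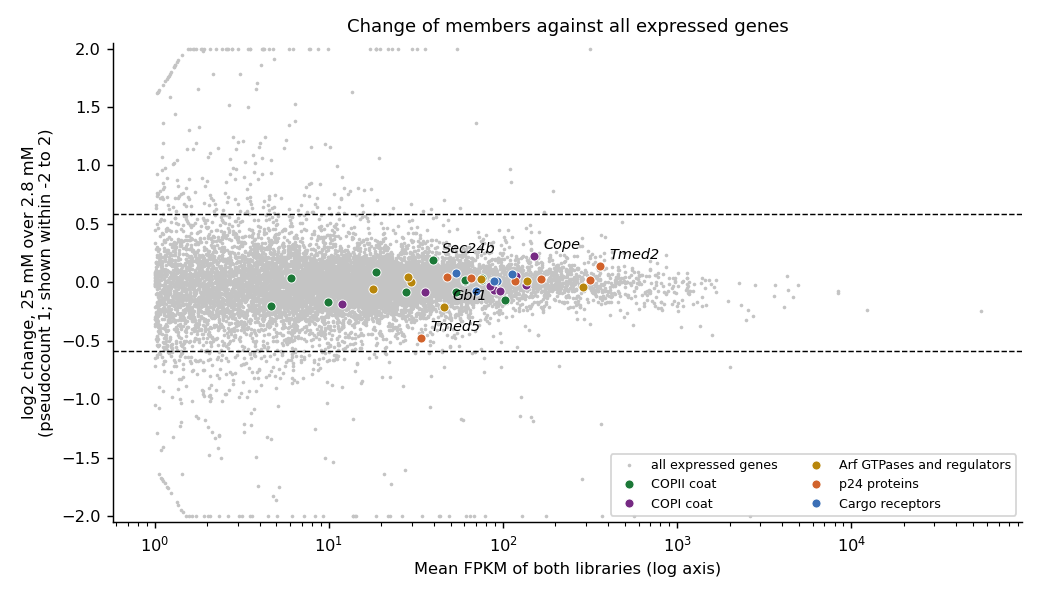
The log2 change from 2.8 to 25 mM glucose (pseudocount 1) against mean FPKM (log axis) for all 12694 expressed genes (grey; changes beyond -2 or 2 are drawn at the edge) and the 41 expressed members (coloured by role); dashed lines mark 1.5-fold. All members lie between the lines, from -0.48 for Tmed5 to 0.22 for Cope.

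The member furthest from 0 was Tmed5 (ENSMUSG00000063406, chromosome 5, 108106366 to 108132620, minus strand), a gamma-subfamily p24 gene. With 39.7 FPKM in low and 28.3 FPKM in high glucose, its log2 change was -0.48, with a counting interval of -0.87 to -0.12. Its share of the p24 sum was 3.64% and 2.51%. It was the single member at least 20% lower. Its exons overlap those of Mtf2 on the opposite strand over 395 bases (5.14% of its exon bases), and Mtf2 was at 36.8 and 32.3 FPKM. Whether reads of Mtf2 take part in the difference was not tested.

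At the other end stood Cope (ENSMUSG00000055681, chromosome 8, 70302518 to 70312993, plus strand), which encodes the COPI epsilon subunit. With 139 FPKM in low and 162 FPKM in high glucose, its log2 change was 0.22 (counting interval 0.03 to 0.43). In the other 2 subunits of its subcomplex the log2 change was -0.01 (Copa) and -0.02 (Copb2).

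The counting interval left out 0 for 6 of the 41 expressed members, 3 higher (7.32%) and 3 lower (7.32%) at 25 mM. Intervals made the same way lay above 0 for 6.96% and below 0 for 9.86% of 12234 expressed genes, and for 9.74% and 11.9% of 5111 genes at 20 FPKM or more, so the members' shares are near or below that background. Beside Tmed5 and Cope these were Gbf1 (49.0 and 42.2 FPKM, log2 change -0.21, interval -0.27 to -0.16), Tmed2 (343 and 379 FPKM, 0.14, interval 0.07 to 0.22), Sec24b (36.9 and 42.1 FPKM, 0.19, interval 0.04 to 0.35) and Arcn1 (90.1 and 86.3 FPKM, -0.06, interval -0.12 to -0.01). For Arcn1 the interval took in 0 under each of 3 rescalings, and its log2 change was 0.00 with summed FPKM made equal, whereas the other 5 kept their side of 0 under all 3. With summed FPKM made equal the counts were 9 higher (22%) and 2 lower (4.88%). Beside them stood 14.4% and 5.1% of expressed genes, and 21.7% and 5.07% of genes at 20 FPKM or more, so the members' shares are near that of abundant genes. These intervals compare 2 libraries, not the conditions. The median half-width over the expressed members was 0.14, so with these intervals a difference below about that size could not be seen for a typical member. Counting on the shortest coding transcript widens most of them, so this is not the limit of the data.

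Among the paralogue shares, the largest differences between the libraries were a few percentage points. Sec16a held 78.2% of Sec16 at 2.8 mM and 81.9% at 25 mM, a difference of 3.67 points. Sar1b differed by 3.23 points, Sec24b by 3.04 points and Tmed2 by 2.12 points. Copz1 differed by 1.5 points and Sec23b by 1.47 points. The rank order of paralogues was the same at both concentrations in all 11 families.

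Other genes of the early secretory pathway were at similar levels too. Of 73 genes for COPII accessory factors, tethers, SNARE proteins, other Arf family members and other cargo receptors, 68 were expressed. None was at least 1.5-fold apart, and 2 were at least 20% lower and 0 at least 25% higher. The 2 lie near the shares given above for genes of their abundance, 4.88% lower at 5 FPKM or more and 2.8% at 20 FPKM or more. The median log2 change of the 68 was 0.00, with 34 above 0 and 34 below. The lowest were Bet1l, a Golgi SNARE gene (13.1 and 9.65 FPKM, log2 change -0.41), Ergic2, a cycling membrane protein gene (104 and 82.6 FPKM, -0.32), and Trappc6a, a gene of the TRAPP tether (36.8 and 29.9 FPKM, -0.29). Of the 31-mers of Bet1l and Ergic2, 20.3% and 23.4% also occur in other genes. The highest were Tfg, which organises COPII carriers at exit sites (34.2 and 41.3 FPKM, 0.26), Arf6, an Arf of the plasma membrane (52.1 and 61.1 FPKM, 0.23), and Mia2, which helps load large cargo (56.1 and 64.3 FPKM, 0.19). The 3 most abundant were Ergic3 (171 and 163 FPKM), Bcap31 (144 and 139 FPKM) and Trappc6b (134 and 118 FPKM).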

How the data were processed

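RNA sequencing of MIN6 cells was used, with 1 library per glucose concentration and groups taken from the treatment label. Per the file headers, the authors deposited FPKM, 1 value per gene and library. Per the submitters' processing notes, reads went through HISAT2 and Cuffdiff on GRCm38; settings, library kit, strandedness and annotation release are not stated there or in the other sources. Without known strandedness, overlapping genes cannot be told apart. An empty row (1) was dropped.

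Log2 changes used a pseudocount of 1; expressed means an average of 1 FPKM or more. Genes past a fold of 1.5, or at least 25% higher or 20% lower on the same scale, were counted. Members, gene lists and tests were chosen with earlier results of these data known. All members were named; of the other pathway genes, the 3 highest, 3 lowest and 3 most abundant expressed ones were named. Positions, transcript lengths and 31-mer sharing (longest transcript, either strand) came from GENCODE release 21 for mouse, which held 99.4% of the gene identifiers. Total fragments were fitted to low single-transcript genes of the deposited FPKM; 94.6% and 94.7% of values lay within 0.1 of a whole fragment. The steps were tested on simulated data. Promoters came from RefSeq; 40 of 45 member promoters continued into an annotated transcript of the gene. Software was SciPy 1.17.1, pandas 2.3.3, NumPy 2.4.6 and matplotlib 3.10.9 under Python 3.11.15. Alternatives were pseudocounts, filters, folds, scalings, summed rows and removal of genes with shared 31-mers.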

Additional observations from a re-analysis of the deposited data

How the results depend on the processing

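No paired analysis was possible because each concentration had 1 library, and no replicate could be left out. No member and no other pathway gene was at least 1.5-fold higher or lower under any pseudocount, filter or scaling tried. With the smaller threshold 1 member and 2 other pathway genes were at least 20% lower, as a smaller fold must allow more genes. The median of expressed members, 0.01, became 0.079 when summed FPKM was made equal, 0.055 when mitochondrial and top 10 genes were left out of that sum and 0.029 when centred on all expressed genes; the median of all expressed genes moved with it, from -0.02 to 0.045, 0.022 and 0.00. With the same summed FPKM the medians were 0.078 for COPII, 0.070 for Arf and 0.081 for cargo receptor genes, and 0.053 for COPII without mitochondrial and top 10 genes. These are shifts of a whole library. Without the 4 members that shared at least 20% of their 31-mers the median stayed 0.01. Paralogue shares were the same with rows of 1 symbol summed, since each member had 1 row. The members whose counting interval lay above 0, 3 as deposited, were 9 (22%) with summed FPKM made equal. The shares were then 14.4% of expressed genes and 21.7% of genes at 20 FPKM or more. With mitochondrial and top 10 genes left out of that sum, the members above 0 were 5 (12.2%), beside 11.2% and 16.5%. The members' shares thus moved with those of all genes. Alternatives for these counts and for the other pathway genes were added after seeing the data. Precision is limited by 1 library per concentration and by unknown isoform assignment.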

Other observations

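The members with the XBP1/ATF6 element in a promoter were set beside those without it after both sets of values had been seen. The 7 expressed members with the element were all lower at 25 mM, with a median log2 change of -0.09 and a range of -0.21 (Gbf1) to -0.02 (Copb2). The counting interval took in 0 for all of them but Gbf1, so most of these directions are not resolved with these intervals. They rest on the shortest coding transcript, which for Sec24d held only 10 and 17 fragments, so they are not the limit of the data. Of the 29 expressed members with a promoter and no match, 9 were lower, with a median of 0.02. With both libraries rescaled to the same summed FPKM, 4 of the 7 and 7 of the 29 were lower, and the medians were -0.02 and 0.08. With mitochondrial and top 10 genes left out of that sum, 4 of the 7 and 8 of the 29 were lower (medians -0.04 and 0.06). Centred on the median of all expressed genes, all 7 and 8 of the 29 were lower (medians -0.07 and 0.03). The same direction was not seen over all genes: of 96 expressed genes with the element 53.1% were lower (median -0.02), and of 9001 with a promoter and no match 55.2% (median -0.02). None of the 7 was at least 20% lower, and the difference was not tested.

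Transcripts of the factors known to bind the element or its relatives were present at both concentrations, and were picked after their values were seen. Xbp1 stood at 46.0 FPKM in low and 42.4 FPKM in high glucose, and Atf6 at 26.0 and 23.1 FPKM. Creb3l2, a factor that in mouse cartilage cells is known to drive Sec23a, was at 2.50 and 2.36 FPKM. Creb3l1 was listed at 0 in both libraries.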
